A study of Mus musculus with 1279 samples.

Results

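10 genes of glutathione and xenobiotic metabolism were followed through 1279 single mesenchymal cells of the adult mouse heart. They are 10 of the 46517 genes in the count table, of which 28932 had a count in any cell. 5 encode glutathione transferases (Gsta3, Gsta4, Gstm1, Gstm2, Gstt1), 1 a glutathione peroxidase (Gpx3), 2 cytochromes P450 (Cyp2e1, Cyp1b1), 1 an amine methyltransferase (Inmt) and 1 a flavin monooxygenase (Fmo2). The genes were chosen from their levels across the clusters in earlier results of these same counts. Their levels, orders and fold changes are therefore given as a description and carry no p-value. All 10 had counts, in 52 cells (Gsta4) to 1273 cells (Gstm1).

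Glutathione is a small thiol that cells keep at high concentration. Glutathione transferases join it to reactive compounds, and glutathione peroxidases spend it to reduce peroxides. Cytochromes P450 and flavin monooxygenases add oxygen to foreign and endogenous molecules, and methyltransferases add a methyl group to amines and sulphur compounds. These enzymes are best known from the liver and are also made by stromal cells in other organs. Known regulators of many of them are the NRF2 factor, which binds antioxidant response elements, and the aryl hydrocarbon receptor, which binds xenobiotic response elements.

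Every sample was 1 cell, sequenced with Smart-seq2, a plate method that reads whole transcripts and has no molecular identifiers. The study asked how fibroblasts differ from mural cells, a name for vessel-wrapping pericytes and smooth muscle, and the labels give each cell a cluster from 1 to 8 and a strain. All mice were males of 10 to 20 weeks, of C57BL6 background. C57BL6 cells (45.4% of all) carried no reporter and were sorted with antibodies against the PDGF receptors, while PdgfrbGFP (28.5%), Cspg4dsRED (12.7%) and Acta2GFP (13.4%) cells were sorted by a fluorescent transgene under regulatory sequences of Pdgfrb, Cspg4 or Acta2, with endothelial cells gated away in all. Every reporter strain filled 1 plate. For C57BL6 there was a plate of 329 cells, a smaller one, and a plate that gave 1 cell. Elastase was added to the dissociation of Acta2GFP hearts. The labels name no animal, so the strain was the replicate, and strain, sort, dissociation and plate cannot be told apart. A p-value over strains measures the spread between these 4 sources.

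By share of all cells, clusters 1 to 8 made up 5.47%, 17.1%, 8.76%, 18.2%, 22.8%, 3.05%, 9.23% and 15.3%. The study places clusters 1 to 5 (926 cells) among fibroblasts, and clusters 6 to 8 (353 cells) were taken as mural here. Counts per cell ran from 46268 to 1302397 with a median of 274504. Summed levels of 5 fibroblast markers (Col1a1, Col1a2, Pdgfra, Dcn, Lum) were 10590 to 14489 CPM (counts scaled to the same total in every sum) in every strain of clusters 1 to 5, against 309 to 777 in cluster 7. Smooth muscle markers (Acta2, Myh11, Tagln, Cnn1) stood at 10670 to 15717 CPM in cluster 7 and pericyte markers (Kcnj8, Abcc9, Vtn, Higd1b) at 4057 to 15046 CPM in cluster 8. Cluster 6 held smooth muscle markers at 9946 to 13384 CPM and fibroblast markers at 3108 CPM or more. Mural markers (Rgs5, Notch3, Mcam, Des, Cspg4) summed to 781 to 2446 CPM there, against 5239 to 11764 CPM in clusters 7 and 8. 2 sums stood apart from the other strains of their cluster. The 15 Acta2GFP cells of cluster 8 held 3334 CPM of fibroblast markers, where the other strains held 960 to 1370, and 4033 CPM of smooth muscle markers, where the others held 201.1 to 1170. The 3 C57BL6 cells of cluster 6 held 12491 CPM of fibroblast markers, against 3108 and 3223 in the other strains there. The fitted comparisons that these 18 cells enter were also made without them. Markers of cardiac muscle summed to 1291 to 2016 CPM in cluster 7, against at most 650 CPM in the other mural clusters and 315 CPM in any fibroblast sum. Endothelial markers reached 304 CPM (cluster 4), immune markers 33.6 CPM (cluster 8), and adipocyte, mesothelial and hepatocyte markers at most 1.33 CPM in any cluster and strain. The part of RNA from these cells in the levels was not tested.

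In GRCm38 with GENCODE M21, Gsta3 (ENSMUSG00000025934) is at chr1:21240589-21265661 and Fmo2 (ENSMUSG00000040170) at chr1:162874317-162898726. Gstm1 (ENSMUSG00000058135) is at chr3:108012255-108017973, next to Gstm2 (ENSMUSG00000040562) at chr3:107981702-107986453. Inmt (ENSMUSG00000003477) is at chr6:55170626-55175043 and Cyp2e1 (ENSMUSG00000025479) at chr7:140763739-140774987. Gsta4 (ENSMUSG00000032348) is at chr9:78182774-78209349, Gstt1 (ENSMUSG00000001663) at chr10:75783813-75798584, Gpx3 (ENSMUSG00000018339) at chr11:54902453-54910377 and Cyp1b1 (ENSMUSG00000024087) at chr17:79701537-79715061. All are protein coding, and the counts are over their exons.

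Gstm1 and Gstm2 are shown first because 50-base reads may not separate them everywhere. Their coding sequences of 654 bases each were 85.9% identical, with a longest identical run of 60 bases. A stretch of 120 coding bases that holds this run lies on the minus strand between chr3:108016406-108016898 in Gstm1 and chr3:107985127-107985632 in Gstm2 (introns left out). Capitals mark the 5 bases that differ.
Gstm1: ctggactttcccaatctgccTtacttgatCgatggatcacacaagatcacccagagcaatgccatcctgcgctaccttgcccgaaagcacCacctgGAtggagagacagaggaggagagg
Gstm2: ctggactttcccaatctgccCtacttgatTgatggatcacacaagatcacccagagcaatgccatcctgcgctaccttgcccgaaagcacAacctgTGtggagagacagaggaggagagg
Of all 50-base windows of the spliced transcripts, 19.9% of those of Gstm1, 8.3% of those of Gstm2 and 4.57% of those of Cyp2e1 also occurred in a transcript of another gene, most often Gstm2-ps1, Gm12499 and Fcho2. No such window was found for the other 7 genes. How reads with several matches were counted is not given in the sources used here. The levels of Gstm1, Gstm2 and Cyp2e1 are therefore uncertain by an amount that these shares do not measure. Gsta3 and Gsta4, on different chromosomes, were 65.6% identical over their coding sequences, with a longest run of 13 bases.

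1 promoter is shown as an example for each of 2 response element letter patterns found near the start. RefSeq promoters (GRCm38.p6) were given for 9 of the 10 genes, in 11 entries. The antioxidant response element TGACNNNGC, searched on both strands, occurred in 12.4% of all 32851 promoters of 300 bases and, among these genes, in that of Gsta3 alone, upstream of the start and on the same strand. The core of the xenobiotic response element, GCGTG, occurred in 32.4% of all promoters and in those of Gstm1 (in both of its entries) and Cyp1b1 (76 bases before the start, on the opposite strand). No promoter of the 9 genes held both patterns. The 250 bases before the start follow, for Gsta3 from chr1:21240335-21240584 on the plus strand and for Cyp1b1 from chr17:79715062-79715311 on the minus strand, with the pattern in capitals (read from the other strand for Cyp1b1).
Gsta3: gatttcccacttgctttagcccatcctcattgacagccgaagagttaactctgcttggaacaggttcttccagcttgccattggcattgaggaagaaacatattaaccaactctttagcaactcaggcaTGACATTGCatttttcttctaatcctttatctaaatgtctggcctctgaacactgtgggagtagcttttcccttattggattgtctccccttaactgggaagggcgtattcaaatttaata
Cyp1b1: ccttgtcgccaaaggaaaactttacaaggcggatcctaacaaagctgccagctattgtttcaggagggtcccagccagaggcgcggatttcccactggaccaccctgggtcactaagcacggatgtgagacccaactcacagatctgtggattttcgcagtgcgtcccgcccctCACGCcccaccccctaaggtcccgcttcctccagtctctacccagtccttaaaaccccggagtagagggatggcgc
A match of letters is a description and shows no binding.

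Levels are CPM of the counts summed over the cells of a cluster and strain, for the 27 sums with at least 3 cells, and are given as mean ± SD over strains. To compare genes with each other, the level in each gene's highest cluster was divided by its exon length. On this scale Gpx3 reached 2289 CPM per kilobase, Gstm1 1196, Inmt 535, Gstm2 306, Gstt1 281.9, Cyp2e1 197.2, Fmo2 161.1, Gsta3 76.3, Cyp1b1 59.1 and Gsta4 5.98. The 10 genes did not share 1 pattern. Gstm1, Gstm2 and Gstt1 were present in every cluster, Gpx3 was high in clusters 2 to 5, and Gsta3, Inmt, Cyp2e1, Cyp1b1 and Fmo2 each had a different cluster or pair of clusters on top.

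**Figure D1:**
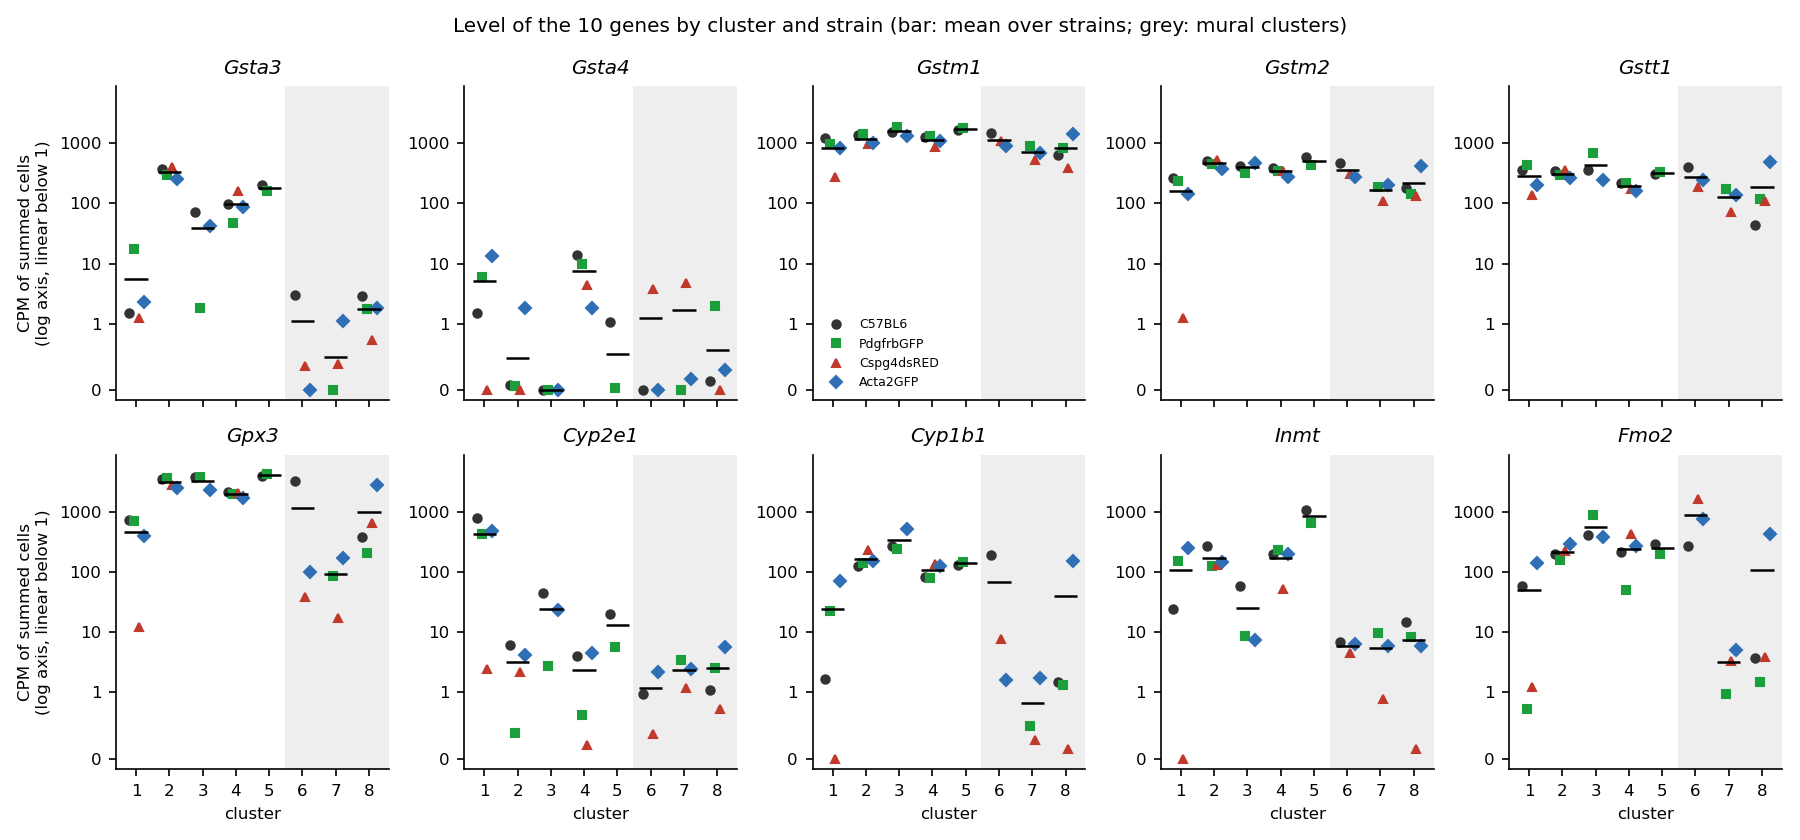
Level of each gene (CPM of summed cells, log axis that is linear below 1) by cluster, with 1 point per strain and a bar for the mean over strains; mural clusters are on grey. Gstm1 stays between 273.9 and 1901 CPM throughout, while Cyp2e1 stands at 434 to 789 CPM in 3 strains of cluster 1 and at 2.47 CPM in the 3 Cspg4dsRED cells.

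Gsta3, an alpha class transferase known in the mouse for its action on aflatoxin, was highest in cluster 2 at 331 ± 68.5 CPM (SD, n = 4 strains). The strain values there were 374 (C57BL6), 297 (PdgfrbGFP), 402 (Cspg4dsRED) and 252.8 CPM (Acta2GFP). Cluster 5 followed with 202.1 and 160 CPM in the 2 strains with enough cells, and cluster 4 with 97.7 ± 45.9 CPM (n = 4). Clusters 2 and 5 did not overlap, and clusters 5 and 4 did not overlap by a narrow margin (160 against 158.2 CPM, where 1 of 13 Cspg4dsRED cells held 54.9% of the counts). Cluster 3 ran from 1.85 CPM in PdgfrbGFP to 42.5 in Acta2GFP and 71.1 in C57BL6. Within C57BL6, the larger plate gave 96.2 CPM there and the other plate 8.75, so this level differed as much between plates as between strains. Cluster 1 stood at 5.62 ± 7.91 CPM (n = 4) and the mural clusters at most at 1.78 CPM on average. In cluster 2, 55.3% of cells had 100 CPM or more, against 1 of 70 cells in cluster 1 and 0 of 353 mural cells.

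Gsta4, an alpha class transferase that acts on the lipid peroxidation product hydroxynonenal, was rare. It was counted in 52 cells and its highest cluster mean was 7.57 ± 5.52 CPM, in cluster 4 (n = 4). Its strain values were 14.1 (C57BL6), 9.91 (PdgfrbGFP), 4.41 (Cspg4dsRED) and 1.83 CPM (Acta2GFP). Only 8 cells of cluster 4 had 100 CPM or more, so these sums rest on few cells. In cluster 3 no cell held a count. A count of 0 there still permits up to 2.68% of the cells to hold one, and 3 counts would be 0.0907 CPM. Reads of 1 molecule can be counted more than once here, so such limits cover counting error only. The neighbours in the order of the clusters all overlapped between strains.

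Gstm1 and Gstm2, mu class transferases, were the most widespread of the transferases. Gstm1 was highest in cluster 5 (1761 ± 90.8 CPM, n = 2) and cluster 3 (1586 ± 300 CPM, n = 3), and lowest in cluster 7 (707 ± 200.9 CPM, n = 3). In cluster 7 the strains read 920 (PdgfrbGFP), 521 (Cspg4dsRED) and 679 CPM (Acta2GFP). The mean of cluster 8 was 824.5 CPM with the 15 Acta2GFP cells of mixed markers (1415 CPM) and 628 CPM without them, below cluster 7. With these cells the lowest cluster kept 0.401 of the highest mean, the smallest range among the 10 genes, and no neighbouring clusters were separated. Gstm2 was highest in cluster 5 at 513 ± 117.8 CPM (n = 2) and cluster 2 at 466 ± 64.9 CPM (n = 4), and lowest in cluster 7 at 165.7 ± 49.7 CPM (n = 3) and cluster 1 at 161.4 ± 118.1 CPM (n = 4). The low mean of cluster 1 includes 1.23 CPM from the 3 Cspg4dsRED cells, beside 262.7, 236.7 and 144.9 CPM in the other strains. In cluster 8 Gstm2 read 183.3, 143.3 and 132.4 CPM, and 419 CPM in Acta2GFP, without which its mean was 153.03 CPM, below both of these. At 100 CPM or more, Gstm1 was found in 60.7% of cluster 8 cells and in every cell of cluster 3, and Gstm2 in 20.9% of cluster 8 and 87.2% of cluster 6 cells.

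Gstt1, a theta class transferase that acts on small halogenated compounds, was highest in cluster 3. The strains read 359 (C57BL6), 684 (PdgfrbGFP, 7 cells) and 250 CPM (Acta2GFP) there, a mean of 431 ± 225.6 CPM. All fibroblast clusters lay between 193.7 and 431 CPM on average. Cluster 8 held 44.6 CPM in C57BL6, 120.6 in PdgfrbGFP, 107.7 in Cspg4dsRED and 483 CPM in Acta2GFP, so its mean of 189.05 CPM rests on the Acta2GFP cells and was 90.96 CPM without them. No neighbouring clusters were separated beyond the spread of the strains.

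Gpx3, the secreted, selenium-containing glutathione peroxidase of plasma, was the most abundant of the 10 genes. It stood at 4150 ± 270 CPM in cluster 5 (n = 2), 3282 ± 863 in cluster 3 (n = 3), 3128 ± 594 in cluster 2 (n = 4) and 1997 ± 188.3 in cluster 4 (n = 4). Cluster 4 ran from 1724 to 2133 CPM and lay below every strain of cluster 2, which ran from 2466 to 3729 CPM. Among fibroblasts cluster 1 was the exception, with 739 (C57BL6), 720 (PdgfrbGFP), 12.3 (Cspg4dsRED) and 399 CPM (Acta2GFP). Cluster 7 had the lowest mean, at 87.8 (PdgfrbGFP), 17.2 (Cspg4dsRED) and 171.03 CPM (Acta2GFP). This order rested on the 3 C57BL6 cells of cluster 6, without which cluster 6 averaged 68.4 CPM, below cluster 7. Every cell of cluster 2 had 100 CPM or more, against 64.3% in cluster 1, 18.6% in cluster 7 and 55.1% in cluster 8. Gpx3 reads were dense: 530 cells held over 0.5 and 29 cells over 1 count per exon base, with a highest value of 1.18.

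Cyp2e1, the cytochrome P450 that oxidises ethanol and other small molecules, was the only gene of the 10 with its highest mean in cluster 1. The strain values were 789 (C57BL6), 434 (PdgfrbGFP) and 478 CPM (Acta2GFP), and 2.47 CPM in the 3 Cspg4dsRED cells. The next clusters were 3, at 23.9 ± 21.2 CPM (n = 3), and 5, at 20.4 and 5.77 CPM. In cluster 3, 1 cell held 53.9% of the counts of C57BL6 and 1 cell 80% of those of Acta2GFP. In cluster 5, 1 cell held 82.9% of those of PdgfrbGFP. Every other cluster averaged at most 3.24 CPM. Cluster 1 overlapped with cluster 3 only through the Cspg4dsRED cells. In 30 of the 70 cells of cluster 1 Cyp2e1 reached 100 CPM (10 of 19 C57BL6, 9 of 22 PdgfrbGFP, 0 of 3 Cspg4dsRED and 11 of 26 Acta2GFP cells), and in at most 5 cells of any other cluster. Its level in cluster 1 therefore came from a part of the cells, with a median over cells of 5.88 and a highest value of 3446 CPM. After thinning each cell to 50000 counts (2 cells were below this depth), 50.4% of cluster 1 cells had a count, against 2.06 to 10.8% in the mural clusters. Unthinned shares were 62.9% and 10.3 to 25.5%.

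Cyp1b1, a cytochrome P450 of steroids, retinoids and polycyclic aromatic compounds, was highest in cluster 3. It read 273.8 (C57BL6), 244.7 (PdgfrbGFP) and 517 CPM (Acta2GFP) there, a mean of 345 ± 149.2 CPM. Clusters 2, 5 and 4 followed at 163.2 ± 49.6, 140 ± 13.5 and 107.2 ± 28.8 CPM. The PdgfrbGFP value rested on 1 of 7 cells, with 99.6% of the counts, and was 1.08 CPM without it. Without that cell the strains of cluster 3 no longer all lay above cluster 2, and the later neighbours overlapped as well. Between the C57BL6 plates Cyp1b1 differed throughout, with 197.8 against 463 CPM in cluster 3, 56.3 against 224.6 CPM in cluster 5 and 26.3 against 167.4 CPM in cluster 4. The smaller plate was the higher in each. Cluster 7 had the lowest mean, 0.842 ± 0.799 CPM (n = 3), and cluster 8 without its 15 Acta2GFP cells averaged 0.997 CPM, within that spread.

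Inmt, which methylates tryptamine and other amines, was highest in cluster 5, at 1065 CPM in C57BL6 and 648 CPM in PdgfrbGFP. Clusters 4 and 2 were next, at 173.01 ± 82.4 and 171.3 ± 69.5 CPM (n = 4 each), and no strain of either reached cluster 5. The C57BL6 plates gave 1078 and 1050 CPM in cluster 5. In cluster 5, 52.4% of cells had 100 CPM or more, and the median cell held 785 CPM in C57BL6 and 11.03 CPM in PdgfrbGFP. Cluster 1 ranged from 0 CPM in the 3 Cspg4dsRED cells through 24.2 and 156.1 to 254.8 CPM in Acta2GFP, where 1 cell held 38.7% of the counts. The 156.1 CPM of PdgfrbGFP held 42.9% of its counts in 1 cell and was 96.9 CPM without it. Cluster 3, at 25.3 ± 29.7 CPM, was the lowest of the fibroblast clusters, and the mural clusters averaged at most 7.41 CPM.

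Fmo2, a flavin monooxygenase of nitrogen and sulphur compounds, was the only gene of the 10 with its highest mean in cluster 6. That cluster was taken as mural here, with fibroblast markers of 3108 CPM or more. Cluster 6 held 275.3 (C57BL6), 1659 (Cspg4dsRED) and 776 CPM (Acta2GFP), where C57BL6 and Acta2GFP gave 3 cells each. The C57BL6 value rested on 1 of the 3 cells, with 99.3% of the counts. In Acta2GFP 1 cell held 80.7% of them, and the sum was 236.8 CPM without it. In Cspg4dsRED, 31 of 33 cells had 100 CPM or more. Cluster 3 followed with 418 (C57BL6), 905 (PdgfrbGFP) and 382 CPM (Acta2GFP), and all its strains lay above cluster 5 (296 and 203.5 CPM). Cluster 7 had the lowest mean, 3.14 ± 2.07 CPM (n = 3), and cluster 8 without its 15 Acta2GFP cells averaged 3.02 CPM, within that spread. Clusters 6 and 7 both had high smooth muscle markers, and in Cspg4dsRED and Acta2GFP cluster 6 lay above the highest strain of cluster 7 (5.10 CPM). The C57BL6 sum of cluster 6 lay above it only through its 1 cell and was at 2.71 CPM without that cell. Without C57BL6 the mean of cluster 6 was 1217 CPM, against 903 CPM with it.

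**Figure D2:**
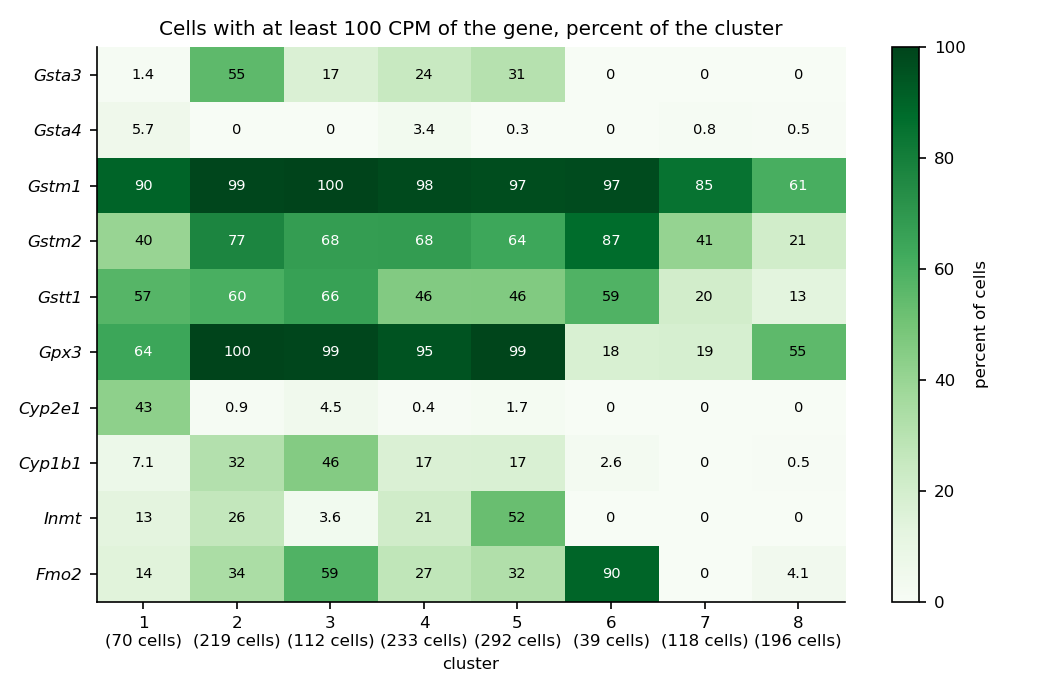
Share of the cells of each cluster with at least 100 CPM of the gene, in percent, by gene (vertical axis) and cluster (horizontal axis, number of cells in brackets); darker green is a higher share. Fmo2 reaches 90% in cluster 6 and 0% in cluster 7, and Cyp2e1 43% in cluster 1 and at most 4.5% elsewhere.

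A cell of clusters 2 or 3 had a median of 5 of the 10 genes at 100 CPM or more, a cell of clusters 4, 5 or 6 a median of 4, a cell of cluster 1 a median of 3, of cluster 7 a median of 2 and of cluster 8 a median of 1. Cluster 8 cells were also the shallowest, with a median of 167874 counts against 349816 in cluster 4. Pairs of genes differed in how often both reached 100 CPM in the same cell of a cluster. For Gsta3 and Inmt it was 49 cells of cluster 5, where the product of the shares gives 47.2, and 34 cells of cluster 2, with a product of 32.05. For Fmo2 and Inmt it was 64 cells of cluster 5, with a product of 49.3, and 22 cells of cluster 4, with a product of 13.5. These examples were chosen after their values were seen, and cells of a cluster share strains, plates and depth.

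The Acta2GFP sum of cluster 8 and the C57BL6 sum of cluster 6 were also the highest of their clusters for Gpx3, Cyp1b1, Gstm1, Gstm2 and Gstt1. In cluster 8, Gpx3 read 383 (C57BL6), 206.01 (PdgfrbGFP), 648 (Cspg4dsRED) and 2836 CPM (Acta2GFP), Fmo2 3.66, 1.51, 3.90 and 429 CPM, and Cyp1b1 1.49, 1.35, 0.15 (1 count) and 155.2 CPM. The Acta2GFP sum was the highest for all 3 genes, while single cells overlapped: a Cspg4dsRED cell held 5100 CPM of Gpx3, and the Cspg4dsRED sum was 499.5 CPM without its cell with the most counts. Of the Acta2GFP cells all 15 had over 100 CPM of Gpx3 (292.5 to 6264 CPM) and 8 had 100 CPM or more of Fmo2, while 97.6% of the Cyp1b1 counts lay in 1 cell and the sum without it was 4.19 CPM. In cluster 6, Gpx3 read 3298 CPM in C57BL6 against 38.03 (Cspg4dsRED) and 98.8 CPM (Acta2GFP), and all 3 C57BL6 cells were high (1624, 2468 and 6349 CPM). Cyp1b1 read 192.99 CPM in the same C57BL6 cells, with 99.5% of the counts in 1 cell, and Gstt1 397 CPM, with 99.3% in 1 cell. Among the 15 Acta2GFP cells, the cell with the lowest fibroblast markers (1035 CPM) held 5671 CPM of Gpx3 and the cell with the highest (7613 CPM) held 6264 CPM. The cells with 100 CPM or more of Fmo2 had 1820 to 7613 CPM of these markers, and the other cells 1035 to 4679 CPM. The part of fibroblast RNA in these levels was not tested.

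**Figure D3:**
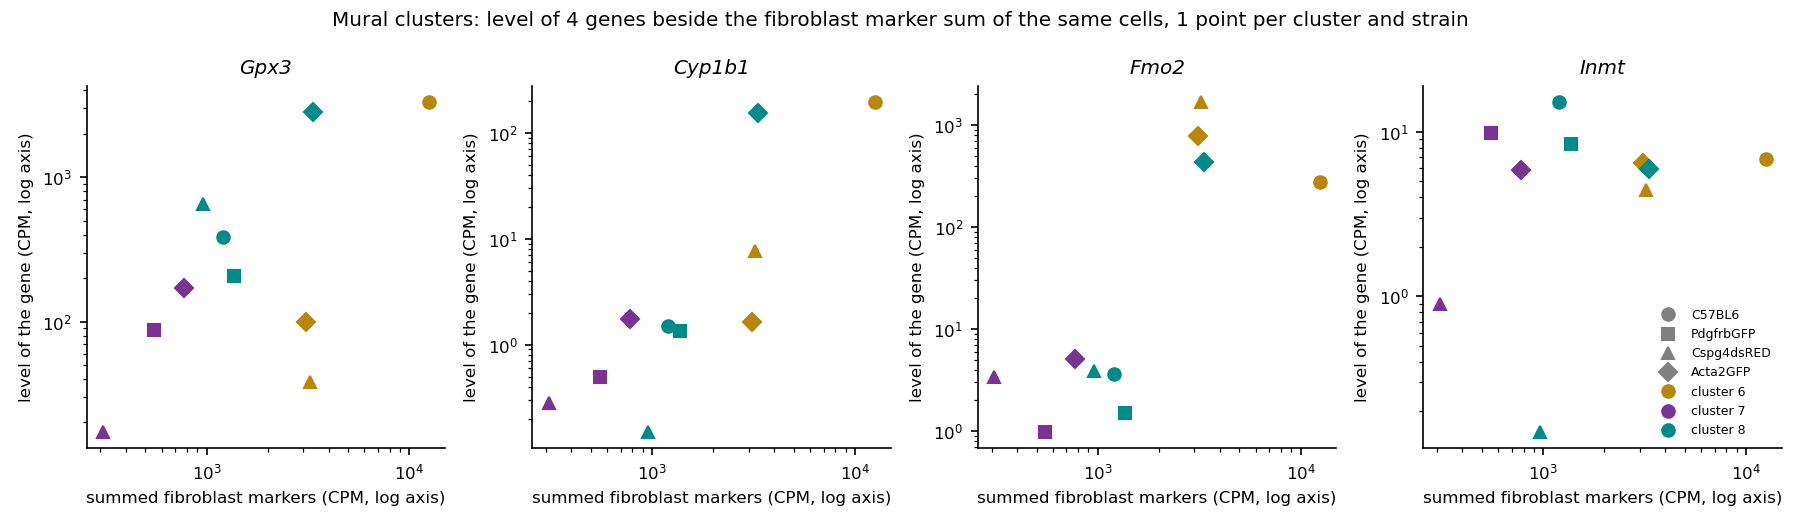
Level of Gpx3, Cyp1b1, Fmo2 and Inmt (vertical axis, CPM, log) against the summed fibroblast markers (horizontal axis, CPM, log) in the mural clusters, with 1 point per cluster and strain. The Acta2GFP point of cluster 8 at 3334 CPM of markers is the highest of its cluster for Gpx3, Cyp1b1 and Fmo2, and Inmt stays at or under 15.05 CPM in every point.

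Some low mural levels also moved with the row and column of the well on the plate. Mural cells were split by the counts of the gene in the other wells of their row and column, above against at or below the median. For Cyp1b1, 64% against 11.5% of Acta2GFP mural cells had a count, 50% against 10.5% in C57BL6, 28.1% against 9.38% in PdgfrbGFP and 8.82% against 2.90% in Cspg4dsRED. Inmt read 13.9 against 2.76 CPM in PdgfrbGFP and 21.2 against 8.56 CPM in C57BL6. Both genes were higher in wells whose row and column were rich in them on all 4 plates. Gsta3 was too, but in C57BL6 not by share of cells with a count (55.6% against 57.9%). Cyp2e1 and Fmo2 were lower in such wells of Cspg4dsRED (0.685 against 0.983 and 365.5 against 676.6 CPM) and higher on the other plates. Gpx3 was higher in PdgfrbGFP and Cspg4dsRED (215.4 against 37.01 CPM in the latter) and lower in C57BL6 and Acta2GFP. Gstm1 was not higher in such wells on any plate, at 813 against 910 CPM in PdgfrbGFP and 655 against 680 CPM in Cspg4dsRED. The part of reads from wells of the same row or column in the mural levels was not tested.

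For the comparisons, counts were summed per strain and side, with 3 cells or more on each side, and fitted over all genes with edgeR's quasi-likelihood test. A log2 fold change is given with its standard error (SE). A gene was called at a Benjamini-Hochberg adjusted p under 0.05. The authors' clusters came from the same counts, so calls between clusters are themselves a description.

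In fibroblasts against mural cells, Gsta3 and Inmt stood highest above the mural level. Gsta3 read 188.2, 138.1, 226.4 and 120 CPM in fibroblasts of C57BL6, PdgfrbGFP, Cspg4dsRED and Acta2GFP, and 2.78, 1.55, 0.452 and 1.22 CPM in mural cells. For Inmt the fibroblast values were 452, 353, 74.96 and 178.8 CPM and the mural values 14.01, 8.6, 1.84 and 5.95 CPM. Both genes separated the sides in every strain without overlap, with log2 fold changes of 6.83 (SE 0.62) and 5.14 (SE 0.78). Cyp2e1 read 43.6, 50.8, 2.65 and 110 CPM against 1.16, 2.62, 0.848 and 3.46 CPM, with a fitted log2 difference of 4.64 (SE 1.05). Without cluster 1, the fibroblasts read 16.1, 2.84, 2.67 and 7.10 CPM of Cyp2e1 in the same order of strains. Gpx3 read 3212, 3166, 2259 and 1776 CPM against 719, 194.3, 142.4 and 1035 CPM, with a fitted log2 difference of 2.34 (SE 0.60). Its sides did not overlap either, while those of Cyp2e1 met in the low Cspg4dsRED value.

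The other 6 genes were not called. Cyp1b1 had a log2 fold change of 3.00 (SE 0.96), farther from 0 than that of Gpx3, and its sides did not overlap. The log2 fold change was 1.25 (SE 1.14) for Gsta4, 0.94 (SE 0.27) for Gstm2, 0.89 (SE 0.37) for Gstt1, 0.61 (SE 0.28) for Gstm1 and 0.47 (SE 1.07) for Fmo2. Gstm1 and Gstm2 were higher in fibroblasts in 4 of 4 strains. Gstt1 was higher in 3 of 4, with 214.8 CPM on the fibroblast side of Acta2GFP and 260 CPM on its mural side. Fmo2 was higher in 3 of 4 strains, and lower in fibroblasts of Cspg4dsRED (365 against 509 CPM), which held 33 of the 39 cells of cluster 6. Of the 10 genes 4 were called higher in fibroblasts (Gsta3, Inmt, Cyp2e1, Gpx3), where 3.47% of all 15117 genes tested were, and 0 were called lower, where 2.45% of all genes were. Since the genes were chosen on these levels, nothing is read from that count. With the strain as a block 2 were called higher. Without C57BL6 or without PdgfrbGFP it was 2, without Cspg4dsRED or without Acta2GFP 3, and without the 18 cells with mixed markers 6, with Cyp1b1 at 6.45 and Gpx3 at 3.56 on the log2 scale.

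Cluster 1 against clusters 2 to 5 set Cyp2e1 apart from the rest. Cyp2e1 read 789, 434, 2.47 and 478 CPM in cluster 1 of C57BL6, PdgfrbGFP, Cspg4dsRED and Acta2GFP, and 16.1, 2.84, 2.67 and 7.10 CPM in clusters 2 to 5. The fitted difference was 5.93 on the log2 scale (SE 1.22). Gsta3 went the other way, with 1.52, 17.5, 1.23 and 2.26 CPM against 195.1, 153.3, 245.1 and 153.5 CPM, and a fitted log2 difference of -4.86 (SE 0.89). Its sides did not overlap, and those of Cyp2e1 overlapped through the 3 Cspg4dsRED cells. The 17.5 CPM of PdgfrbGFP rested on 1 cell with 99.3% of the counts, was 0.131 CPM without that cell, and without PdgfrbGFP the log2 fold change was -6.78. Cyp1b1 (-2.80, SE 1.07), Gpx3 (-2.56, SE 0.80) and Fmo2 (-2.48, SE 1.12) were lower in cluster 1 in 4 of 4 strains. For Cyp1b1 in cluster 1, 1 cell held 96.8% of the counts in PdgfrbGFP (22.9 CPM) and 1 cell 61.7% in Acta2GFP (71.2 CPM). Gstm1 (-0.58, SE 0.42), Gstm2 (-1.32, SE 0.82), Inmt (-1.29, SE 1.06), Gstt1 (0.11, SE 0.40) and Gsta4 (0.95, SE 1.21) lay nearer to 0. Of these, Gstm1 and Gstm2 were also lower in cluster 1 in 4 of 4 strains, and the sides of Gstm2 did not overlap. Of the 10 genes 1 was called higher in cluster 1, where 0.561% of all 13201 genes tested were, and 1 lower, where 0.773% were. With the strain as a block 0 were called higher and 1 lower. Without C57BL6 or without Acta2GFP the counts were 0 and 0, and without PdgfrbGFP 0 and 1.

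Cluster 8 against cluster 7, the larger mural clusters, rested on PdgfrbGFP, Cspg4dsRED and Acta2GFP, since C57BL6 gave 1 cell of cluster 7 and was not in the fit. Gpx3 read 206.01, 648 and 2836 CPM in cluster 8 of these strains and 87.8, 17.2 and 171.03 CPM in cluster 7. It was higher in cluster 8 in 3 of 3 strains without overlap, with a log2 fold change of 3.71 (SE 1.00), and 2.73 without Acta2GFP. Fmo2 and Cyp1b1 had log2 fold changes of 5.54 (SE 1.96) and 5.94 (SE 2.50). Both rested on Acta2GFP, without which Fmo2 was at 0.13 and Cyp1b1 was too low to be tested. Gsta4 was too low to be tested. Of the 9 genes tested 0 were called higher, where 0.0843% of all 11867 genes were, and 0 lower, where 0.110% were. DESeq2 also called 0 of the 9.

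**Figure D4:**
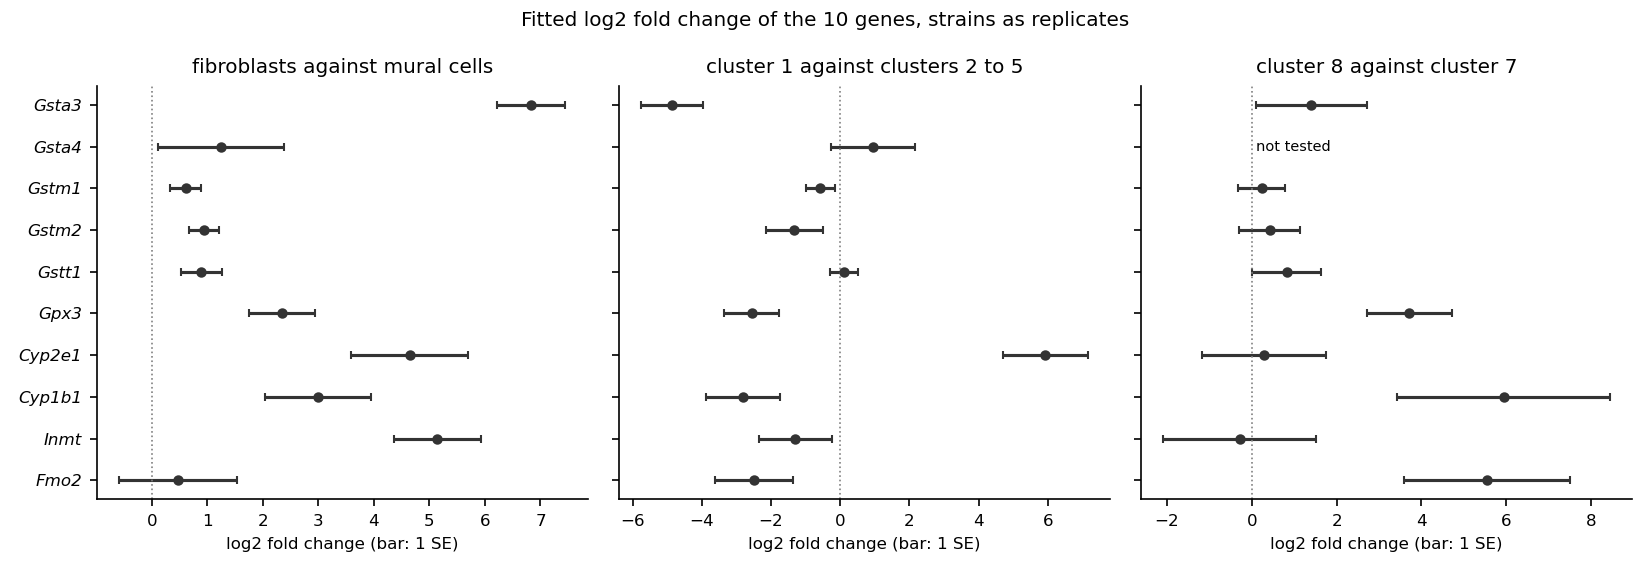
Fitted log2 fold change of each gene (horizontal axis) for the 3 comparisons, each panel headed by its own, with strains as replicates; bars are 1 SE. Gsta3 is at 6.83 in the first and -4.86 in the second comparison, where Cyp2e1 is at 5.93.

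Other genes of these pathways were taken from 10 lists, which were chosen with earlier results of these data known. Shares and medians of the lists are therefore a description, and nothing is read from them beside those of all genes. In fibroblasts against mural cells, 15 of those tested rose (10.6%) and 3 fell (2.13%) in fibroblasts, where 3.47% of all genes were called higher and 2.45% lower. Their median log2 fold change was 0.36, against -0.02 over all genes. Without C57BL6 9 rose and without Acta2GFP 10, and with DESeq2 23 rose and 7 fell. Of all genes DESeq2 called 6.23% higher and 6.51% lower. The following adjusted p-values are Benjamini-Hochberg values of the edgeR quasi-likelihood test over all genes, and each called gene moved the same way in 4 of 4 strains.

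Among other glutathione transferases 2 rose and 1 fell of 14 tested, with a list median of 0.87. Mgst1, a membrane-bound transferase, rose by 4.48 (SE 0.48) on the log2 scale, from 17.3 CPM in mural cells to 379 CPM in fibroblasts (adjusted p = 0.000651, edgeR). Mgst3, of the same membrane family, fell by 2.90 (SE 0.35), from 203.95 to 27.4 CPM (adjusted p = 0.00114, edgeR). The 2 membrane transferases thus went opposite ways, and both calls were kept under all 10 alternatives. Gsto2 averaged 1.39 CPM in fibroblasts against 0.00706 CPM (adjusted p = 0.0101, edgeR), a level so low that its fitted fold is no bound, and the call was lost without any 1 of the strains (adjusted p up to 0.0681 in edgeR) and without the filter on low counts (0.0722).

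Of 4 other glutathione peroxidases tested 1 rose. Gpx7, a peroxidase of the endoplasmic reticulum, rose from 46.7 CPM on the mural side to 199.98 CPM, by 2.12 on the log2 scale (SE 0.44, adjusted p = 0.0176 in edgeR). That call was lost without PdgfrbGFP, Cspg4dsRED or Acta2GFP (adjusted p 0.0775 to 0.0822, edgeR). Gpx1, the peroxidase of the cytosol, had a log2 fold change of -0.08 (SE 0.25), at 530 and 561 CPM. Of 21 genes of glutathione synthesis and turnover 1 rose, Dpep1, a surface dipeptidase that cleaves cysteinylglycine, at 1784 against 75.02 CPM (log2 fold change 4.59, SE 0.94, adjusted p = 0.0172 in edgeR). Without C57BL6 or PdgfrbGFP that call was lost (adjusted p = 0.107 and 0.10, edgeR). Gclc and Gclm, the subunits of the enzyme that starts glutathione synthesis, had log2 fold changes of 0.12 (SE 1.05) and 0.21 (SE 0.52).

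The P450 list gave 0 rises and 1 fall of 11 tested, that of Cyp4b1, a P450 of fatty acids and aromatic compounds (-3.62, SE 0.89, 6.36 against 79.8 CPM, adjusted p = 0.0400 in edgeR). This call was lost without C57BL6, Cspg4dsRED or Acta2GFP (adjusted p 0.0798 to 0.165, edgeR) and without the 18 cells (0.194). Of 31 other oxidation, reduction and hydrolysis enzymes 6 rose: Ces1d, Aox3, Adh1, Fmo1, Aox1 and Aldh3a1. Ces1d, a carboxylesterase, was at 146.6 CPM against 1.5 CPM on the mural side (log2 fold change 6.64, SE 0.85, adjusted p = 0.00157 in edgeR). Adh1, an alcohol dehydrogenase, was at 75.9 and 1.69 CPM (5.52, SE 0.77, adjusted p = 0.00268 in edgeR). Both were kept under all 10 alternatives. Aox3, an aldehyde oxidase, was called at an adjusted p of 0.0150 (edgeR) and lost with the block (0.0510) and without C57BL6, Cspg4dsRED or Acta2GFP (0.0600 to 0.0874).

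Conjugating enzymes had the highest list median, 1.92, with 5 of 14 tested higher in fibroblasts. They were Ugt1a1, Ugt1a6a, Ugt1a7c, Ugdh, which makes the glucuronic acid donor, and Papss2, which makes the sulphate donor. The 3 Ugt1a transferases share exons, so their counts cannot be separated with certainty. Ugt1a7c was at 25.7 and 0.109 CPM (log2 fold change 7.99, SE 1.25, adjusted p = 0.00493 in edgeR) and its call was kept under all 10 alternatives. Those of Ugt1a1 and Ugt1a6a (adjusted p = 0.0106 and 0.0110, edgeR) were lost without C57BL6 or Acta2GFP (0.0504 to 0.0710). Of 7 efflux transporters tested 1 fell, Abcc9, the sulphonylurea receptor of the pericyte potassium channel (-4.98, SE 0.77, 43.8 against 1311 CPM, adjusted p = 0.00476 in edgeR, 0.0536 with the strain as a block). Abcc9 is also on the pericyte marker list.

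No gene was called among 20 NRF2 regulators and targets, 9 genes of the aryl hydrocarbon receptor pathway and 17 peroxiredoxins, thioredoxins, catalase and superoxide dismutases, with list medians of 0.38, 0.20 and -0.10. At an unadjusted p under 0.05 edgeR gave 2, 2 and 4 genes, and DESeq2 called 1, 1 and 3. Ahr, the receptor itself, was at 9.08 ± 7.55 CPM on the fibroblast and 8.36 ± 13.6 CPM on the mural side. Nfe2l2, which encodes NRF2, was at 233.2 ± 26.5 and 150.6 ± 60.1 CPM and its target Nqo1 at 9.18 ± 6.69 and 9.07 ± 8.92 CPM (SD, n = 4). Hmox1, another target, was at 150.9 ± 56.1 and 21.4 ± 22.1 CPM (adjusted p = 0.0571, edgeR).

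In cluster 1 against clusters 2 to 5, 2 of the listed genes tested rose (1.47%, against 0.561% of all genes) and 5 fell (3.68%, against 0.773%), with a median of -0.06 against -0.03 over all genes. Dpep1 fell by 6.10 (SE 0.73) on the log2 scale, from 1982 to 27.8 CPM (adjusted p = 0.00239, edgeR), and kept its call under all 9 alternatives. Ggt5, which removes the glutamate of glutathione conjugates outside the cell, fell by 5.26 (SE 0.79), from 144.97 to 3.94 CPM (adjusted p = 0.00791, edgeR), and Adh1 by 6.37 (SE 0.96), from 84.9 to 0.886 CPM (adjusted p = 0.00854, edgeR). The Ggt5 call was lost without C57BL6 or PdgfrbGFP (0.0800 and 0.0747, edgeR), and that of Adh1 without C57BL6, PdgfrbGFP or Acta2GFP (0.110 to 0.134). Dpep1 and Ggt5, which act one after the other on extracellular glutathione, were thus both low in cluster 1. In the mural clusters they differed, with Dpep1 at 16.2 and Ggt5 at 86.2 CPM in cluster 7, and 152.2 and 391.9 CPM in cluster 8.

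Papss2 and Me1, the malic enzyme that makes NADPH, were higher in cluster 1. Papss2 was at 570 against 129.4 CPM (log2 fold change 2.15, SE 0.41, adjusted p = 0.0338 in edgeR) and Me1 at 151.5 against 35.95 CPM (2.08, SE 0.42, adjusted p = 0.0416 in edgeR). Both calls were lost with the strain as a block (adjusted p = 0.132 each, edgeR) and without PdgfrbGFP, Cspg4dsRED or Acta2GFP (0.0971 to 0.219), and that of Me1 also without C57BL6 (0.166) and without the filter on low counts (0.129). Ugt1a6a and Ugt1a7c fell (adjusted p = 0.0481 each, edgeR) and their calls were lost with the block (0.125 and 0.126) without any 1 strain (0.131 to 0.273) and without the filter on low counts (0.0536 and 0.0532). With at least 10 cells per sum these 4 calls were lost as well (0.0971 to 0.131, edgeR). Fmo1, in the same family as Fmo2, had a log2 fold change of -0.05 (SE 0.86), and Gpx1 of 0.20 (SE 0.28).

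**Figure D5:**
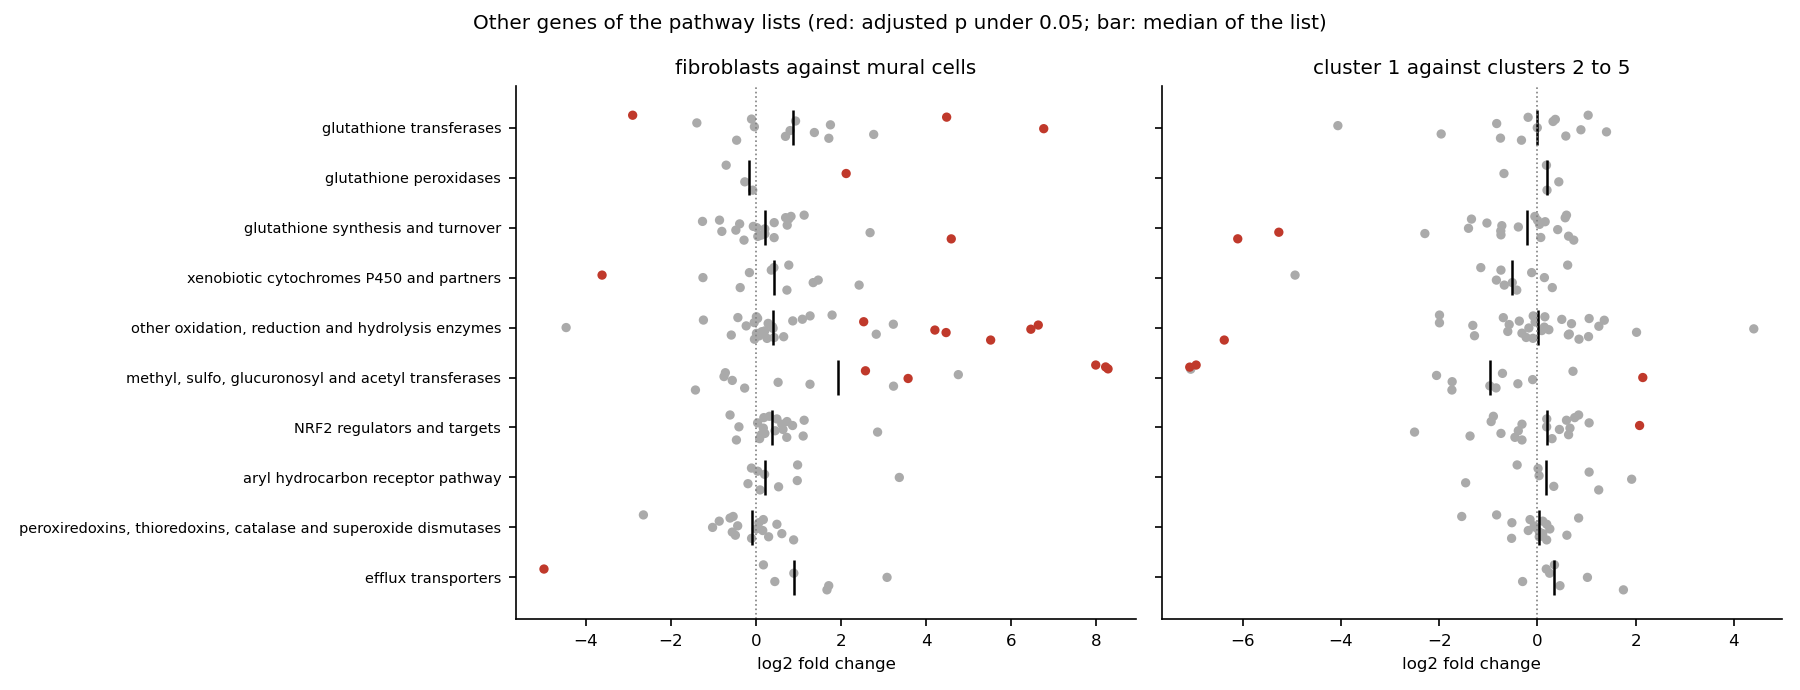
Log2 fold change of the other tested genes of the 10 pathway lists (1 point per gene, 2 comparisons); red points passed an adjusted p under 0.05 and bars are list medians. The conjugating transferases have the highest median, 1.92, in fibroblasts against mural cells, and a median of -0.97 in cluster 1 against clusters 2 to 5.

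In cluster 8 against cluster 7, 0 of the listed genes tested were called by edgeR, 11 had an unadjusted p under 0.05, and DESeq2 called 6, all higher in cluster 8, where it called 1.67% of all genes higher. The median of the listed genes was 0.43, and 0.18 over all genes. Without Acta2GFP edgeR called 1 higher.

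The genes most like each of the 10 were ranked by Pearson's r of log2(CPM + 1) over the 27 sums, among 10326 genes. Sums share plates and depth, so r is a description across sums and has no p. Gsta3 was most like Serpina3n (r = 0.94), Gm26889 (0.93) and Enpp3 (0.92), and Gpx3 most like Serping1 (0.95), Srpx (0.92) and Scn7a (0.92). Inmt was most like Ces1d (0.96), 1700019D03Rik (0.89) and Igfbp6 (0.87). Ces1d read 255.6 ± 44.1 CPM in cluster 5 (n = 2) and 8.82 ± 9.71 CPM in cluster 3 (n = 3), the highest and the lowest fibroblast cluster of Inmt. Cyp1b1 was most like Podn (0.91), Gm47302 (0.89) and Dpep1 (0.89), and Fmo2 like Col14a1 (0.84), Gm26565 (0.83) and Creb3l1 (0.80).

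Cyp2e1 had the lowest likeness after Gsta4. Its closest genes were Fam213a (r = 0.77), Cilp2 (0.73) and Scx (0.73), which rose to 0.90 for Cilp2 and 0.88 for Scx over the 21 sums with at least 10 cells. For Gsta4 they were Lnx1 (0.69), Ptprb (0.67) and Anxa8 (0.66). Gstm1 was most like Penk (0.87), Rps18 (0.87) and Ccn5 (0.86), and Gstt1 like Rpl23a (0.84), Mmp23 (0.83) and Tlcd1 (0.82). Gstm2 was most like Mcfd2 (0.92), Smim10l1 (0.89) and Tcf21 (0.88), of which Smim10l1 fell to 0.22 over the 21 sums. Among the 10 genes themselves, the closest pairs were Gpx3 with Cyp1b1 (r = 0.85), Gstm1 with Gstm2 (0.80) and Gsta3 with Inmt (0.79), and Cyp2e1 reached at most 0.35 with any other.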

How the data were processed

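Single cells from mouse hearts were sequenced with Smart-seq2 as single 50-base reads. The authors deposited raw counts per gene for each cell, made with Bowtie-based alignment (TopHat2) to GRCm38/mm10 and featureCounts of Subread. Strand use and the treatment of reads with several matches are not given in the sources used here. The study kept cells by depth, gene number and receptor expression, removed endothelial and immune cells, and clustered the rest with pagoda2 from the same counts. Groups (cluster and strain) come from the labels. 92 spike-ins (1.82% of counts) were left out of library sizes and tests.

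The 10 genes and all gene lists were chosen with earlier results of these data known. Counts were summed per cluster and strain (at least 3 cells) and given as CPM without spike-ins, and per kilobase of merged exons. For each of 3 comparisons, counts were summed per strain and side and tested over all genes with edgeR 4.0.16 (R 4.3.3, limma 3.58.1, TMM, filterByExpr with a minimum count of 10, quasi-likelihood F test, Benjamini-Hochberg). DESeq2 1.42.0 was an alternative. The others were another normalization, no filter, strain as a block, 10 cells per sum, and leaving out each strain or a plate. Leaving out 18 or 15 cells with mixed markers was chosen after seeing the data. An SE was taken as the size of the log2 fold change over the root of its F statistic. Strain pairs the sides because both came from the same plates. The main fit had no strain term, so its SEs and p-values do not use this pairing. Deviations of the 2 sides of a strain correlated at 0.0624 to 0.176, each highest with its own strain. Pathway genes were named by a rule: per list and comparison, up to 3 with the largest absolute fold change among those called and of 1 direction in every strain. Others named (Gpx1, Gclc, Gclm, Fmo1, Ahr, Nfe2l2, Nqo1, Hmox1, Ugdh, Papss2, Aox1 and Aldh3a1) were chosen for their role or as called after values were seen. On simulated counts with known changes, 39, 35 and 27 of 100 genes changed by 4-fold, and 100 of 100 changed by 32-fold, were recovered. The order is fibroblasts with mural cells (15117 genes), cluster 1 with clusters 2 to 5 (13201) and cluster 8 with cluster 7 (11867). False calls numbered 6, 3 and 10 in the same order. Sequences came from RefSeq promoter tables and GENCODE M21 transcripts, read with Python 3.11.15 and Biopython 1.88.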

Additional observations from a re-analysis of the deposited data

Results flagged for a closer look

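In groups of 4 strains, the gap between the highest or lowest strain and its nearest neighbour was divided by the range of the group, and values over Dixon's 95% critical value were marked. Chance marks about 1 in 20 such groups, and 7 of 40 groups of gene and cluster and 0 of 20 groups of gene and side (fibroblasts or mural cells) were marked. In cluster 8 the Acta2GFP strain stood above the others for Gpx3 (2836 CPM, others 206.01 to 648), Cyp1b1 (155.2 CPM, others at most 1.49) and Fmo2 (429 CPM, others 1.51 to 3.90). These 15 cells also held 3334 CPM of fibroblast markers, whose part was not tested. Gsta3 in cluster 1 stood at 17.5 CPM in PdgfrbGFP (others 1.23 to 2.26), with 99.3% of the counts in 1 cell. Gsta4 stood at 1.82 CPM in cluster 2 of Acta2GFP (others 0 to 0.0752, 96.7% in 1 cell) and at 2.00 CPM in cluster 8 of PdgfrbGFP (others 0 to 0.299, 83.8% in 1 cell). Inmt in cluster 2 stood at 274.5 CPM in C57BL6 (others 127.5 to 150.1), where the top cell held 9.57% of the counts.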

How the results depend on the processing

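Of all genes tested, 5.93% were called in fibroblasts against mural cells, 1.33% in cluster 1 against clusters 2 to 5 and 0.194% in cluster 8 against cluster 7. DESeq2 called 12.7%, 5.22% and 3.20%. Leaving out each strain in turn gave 2.66 to 3.91%, 0.201 to 0.748% and 0 to 0.987%. With the strain as a replicate block the shares were 4.81%, 0.742% and 0.691%. With at least 10 cells per sum cluster 1 gave 0.748% and cluster 8 against cluster 7 gave 0%, with 11.8% of genes at an unadjusted p under 0.05 in edgeR. For cluster 8 against cluster 7, edgeR with the scaling of DESeq2 called 0.379% (up 0.101%, down 0.278%), no filter 0.855% (0.302% and 0.553%), and leaving out the 15 Acta2GFP cells of mixed markers 0.987%. Without the filter more genes were tested, and 2.58% and 0.530% were called in the first 2 comparisons. Fewer strains enter the fits that leave one out. The cause of the other shifts was not tested. Apart from the calls given with the results, the block changed no call of a pathway gene named by the rule. Under the alternatives, 4.87% of the fitted fold changes of the 10 genes moved by more than the spread between strains, and 1.88% of their levels. In cluster 1 against clusters 2 to 5, Gsta4 (0.95) and Gstt1 (0.11) kept their sign in 8 and 7 of 9 alternatives. In cluster 8 against cluster 7, Cyp2e1 kept it in 4, Gstm1 in 5, and Gstm2 and Gstt1 in 7 of 9. The other fitted fold changes of the 10 genes kept their sign throughout. The C57BL6 plate without mural cells was not run alone. Low counts limit Gsta4, and 3 to 4 strains limit every test.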
